A study of Mus musculus with 8 samples.

Results

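Smooth muscle and pericyte genes are described here in bone marrow mesenchymal stem/progenitor cells (MSPCs). The 10 genes were chosen by symbol, as Acta2, Tagln, Myl9, Cnn1, Tpm1, Tpm2, Myh11, Des, Rgs5 and Cspg4, out of 52636 genes in the count table. Bulk RNA was sequenced in 8 libraries of sorted MSPCs, 4 from CTL mice (Flk2-cre+ Cxcr4fl/+) and 4 from cKO mice (Flk2-cre+ Cxcr4fl/fl), with the 2 groups named below by these abbreviations. Both groups were C57BL/6, both carried Flk2-cre and at least 1 floxed Cxcr4 allele, and according to the methods both carried a GFP allele at Kitl, the stem cell factor gene, which was used for sorting. The labels give an age of 6 weeks, whereas the methods give an older age range for all mice. Flk2-cre deletes Cxcr4 in multipotent hematopoietic progenitors and their progeny, so that the sorted stromal cells are not the cells targeted by the deletion, and the comparison asks whether niche cells differ when hematopoietic cells lack Cxcr4. The sorted cells were CD45- Ter119- CD31- CD144- PDGFRα+ SCF-GFP+, a gate without a marker of smooth muscle or pericytes.

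Smooth muscle cells contract by sliding actin filaments along myosin, and the filaments are built from isoforms (Acta2, Myh11, Cnn1) that mark the differentiated contractile state. Serum response factor binds the CArG box, a short AT-rich element, in many of these genes, and myocardin family coactivators act with it. Pericytes wrap capillaries, share part of this program and are recognised by Rgs5 and by the NG2 proteoglycan encoded by Cspg4. In bone marrow, MSPCs lie along sinusoids and arterioles and are themselves perivascular cells.

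Total counts per library lay between 31047344 and 38216877. Levels are given as CPM, each count relative to its library's total after TMM scaling, and between genes as CPM per kb of exon. Each sample title carries a number, which fell in 26 to 32 for CTL2, CTL4, cKO2 and cKO4 and in 67 to 86 for the other libraries. The labels do not say what it stands for, so the ranges were used only as an unnamed grouping with 2 libraries of each genotype in each. Of 14598 genes with a count in every library, the quasi-likelihood test of edgeR called 0 between genotypes at an adjusted p of 0.05 (0%), with 646 at an unadjusted p under 0.05 (4.43%). The MSPC label was checked against 8 MSPC markers, all with a count in every library and led by Cxcl12. They summed to 52916 to 65182 CPM in CTL and 54092 to 65842 CPM in cKO. Osteolineage markers, led by Ibsp, summed to 10061 to 13228 CPM in CTL and 9925 to 15463 CPM in cKO. Pericyte markers, led by Notch3, summed to 439 to 546 CPM in CTL and 470 to 593 CPM in cKO. Hematopoietic markers summed to 63 to 210 CPM in CTL and 135 to 223 CPM in cKO (top gene Hbb-bs). Endothelial markers, mostly Eng (mean 75.6 CPM, Tek at 0), summed to 81.3 to 94.8 CPM in CTL and 74.9 to 105 CPM in cKO. Schwann and glial markers, almost all S100b, summed to 39.3 to 43 CPM in CTL and 48 to 50.3 CPM in cKO without overlap. The part of these other cells in the results below was not tested.

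The smooth muscle and pericyte genes spanned a wide range of levels in MSPCs, and the genes most specific for contractile cells lay at the bottom of it. Per length, Myl9, a regulatory light chain of myosin in smooth muscle and non-muscle cells, was highest with 180 CPM per kb, rank 177 of the 14598 genes. Tpm1, a tropomyosin with muscle and non-muscle isoforms, followed with 101 CPM per kb (rank 370). The intermediate levels were 15.7 CPM per kb for Tpm2, the other tropomyosin, 10.5 for Des, the muscle intermediate filament desmin, and 4.39 for Tagln, the actin-binding protein transgelin. Rgs5, which shortens signalling of heterotrimeric G proteins, was at 2.88 CPM per kb and the smooth muscle actin Acta2 at 1.54 CPM per kb (rank 10671). Myh11, the smooth muscle myosin heavy chain, averaged 0.98 CPM per kb, Cspg4 0.0355 CPM per kb and the actin-binding protein Cnn1 0.00912 CPM per kb. For reference, the MSPC marker Cxcl12 was at 5481 CPM per kb and Pdgfra, used for sorting, at 64.6 CPM per kb. The sum over the 9 smooth muscle markers was 575 to 685 CPM in CTL and 482 to 807 CPM in cKO, of which most came from Mylk, the myosin light chain kinase (mean 451 CPM), and not from Acta2, Tagln, Myh11 or Cnn1. Of 9 skeletal muscle markers, Ckm, Tnnt3, Tnni2, Myh4 and Myh1 had 0 counts in every library. The 9 summed to 3.54 to 8.8 CPM in CTL and 3.64 to 8.84 CPM in cKO, mostly from Actn3 (mean 6.04 CPM). Of 4 cardiac markers, Actc1 and Myh6 had 0 counts in every library. The 4 summed to 0 to 1.15 CPM in CTL and 0.398 to 1.91 CPM in cKO.

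**Figure D1:**
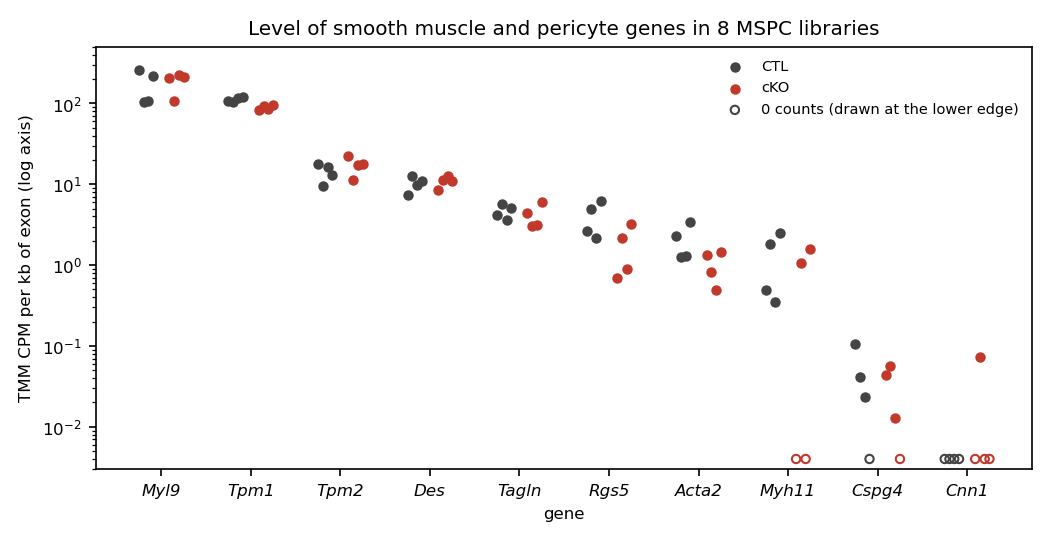
TMM CPM per kb of exon (log axis) of the 10 genes in each library, ordered by mean level, with CTL in grey and cKO in red and open symbols for 0 counts. Myl9 and Tpm1 lie highest, Myh11 is at 0 in 2 cKO libraries, and Cnn1 is at 0 in all but 1 library.

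Within 3 gene families, the isoform known from contractile cells was not the highest. Among the calponins, Cnn2 and Cnn3, which are expressed in many cell types, were at 261 and 53.5 CPM per kb, against 0.00912 CPM per kb for Cnn1. Cnn1 had 0 counts in 7 libraries and 7 counts in cKO2. Among the myosin heavy chains, non-muscle Myh9 was at 26.1 CPM per kb and Myh11 at 0.98 CPM per kb, on average above non-muscle Myh10 at 0.566 CPM per kb. The mean of Myh11 pools title number ranges at 13.3 CPM (26 to 32) and 1.61 CPM (67 to 86). In cKO1 and cKO3 the order was the reverse, with 0 counts for Myh11 and 318 and 91 counts for Myh10. Among the tropomyosins, non-muscle Tpm4 was highest at 186 CPM per kb, followed by Tpm1, by Tpm3 at 29.6 CPM per kb and by Tpm2. Gene counts do not separate the muscle and non-muscle isoforms that Tpm1, Tpm2 and Tpm3 each encode, and exon length is the union over annotated transcripts. Srf, encoding serum response factor, was at 11.1 CPM per kb, and Myocd, encoding myocardin, had counts in cKO1 alone. The other myocardin family coactivators, Mrtfa and Mrtfb, had counts in every library, at 5.14 and 1.51 CPM per kb.

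**Figure D2:**
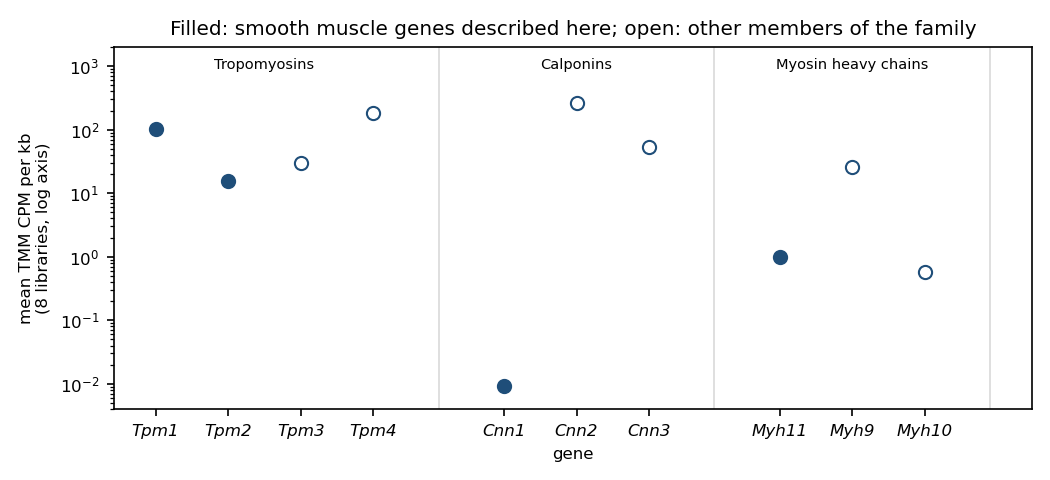
Mean TMM CPM per kb of exon over the 8 libraries (log axis) of tropomyosins, calponins and myosin heavy chains, with filled symbols for the genes described here and open symbols for the rest of each family. Cnn1 lies at 0.00912 CPM per kb below Cnn2 and Cnn3, and Myh11 below Myh9.

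The promoters of these genes are shown because the contractile program is known for its CArG boxes, and because the genes differ widely in level. RefSeq promoter windows on GRCm38.p6, from 250 bases before to 50 bases after the start of each gene, were found for 8 of the 10 genes, Tagln and Myh11 being the exceptions. The search was for a CArG box (CC, then 6 letters that are each A or T, then GG) or the same with 1 core letter G or C, a pattern that reads as itself on the other strand. Of all 32851 promoters in the table, 1.63% held an exact box and 9.98% held a box of either kind, and 0.822% held 2 or more. Acta2 (chr19:34255324-34255623, minus strand) held 2 of the second kind, starting at positions -84 and -34 from the RefSeq start, and Myl9 (chr2:156775214-156775513, plus strand) held an exact box at -161 and 1 of the second kind at -99. No match was found in Tpm1 (chr9:67049164-67049463, minus strand), Rgs5 (chr1:169655251-169655550, plus strand), Tpm2, Des, Cnn1 or Cspg4, which says only that these letters are not in the window. The windows shown are those of Acta2 and Myl9, which held a match, and of Tpm1 and Rgs5. Tpm1 and Rgs5 are the genes with an unadjusted p under 0.05 between genotypes in edgeR (below). The windows read as follows from 5′ to 3′, with the boxes in capitals.
Acta2: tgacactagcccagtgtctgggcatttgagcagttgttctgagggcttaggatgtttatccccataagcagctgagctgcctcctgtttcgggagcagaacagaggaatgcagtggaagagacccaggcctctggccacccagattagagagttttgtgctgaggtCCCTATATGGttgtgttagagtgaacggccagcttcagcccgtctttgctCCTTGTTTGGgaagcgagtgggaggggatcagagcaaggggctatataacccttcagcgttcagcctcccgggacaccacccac
Myl9: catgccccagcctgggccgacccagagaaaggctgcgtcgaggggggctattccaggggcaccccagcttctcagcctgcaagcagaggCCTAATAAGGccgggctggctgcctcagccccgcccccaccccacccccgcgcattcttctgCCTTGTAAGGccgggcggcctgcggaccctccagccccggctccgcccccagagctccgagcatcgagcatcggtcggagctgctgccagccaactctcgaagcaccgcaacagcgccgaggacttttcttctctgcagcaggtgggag
Tpm1: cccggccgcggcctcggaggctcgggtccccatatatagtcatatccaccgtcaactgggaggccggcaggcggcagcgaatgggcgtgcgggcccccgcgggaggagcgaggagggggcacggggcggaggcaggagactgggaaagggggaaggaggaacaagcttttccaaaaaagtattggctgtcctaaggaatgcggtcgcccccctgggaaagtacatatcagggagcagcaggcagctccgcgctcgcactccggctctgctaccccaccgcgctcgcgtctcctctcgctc
Rgs5: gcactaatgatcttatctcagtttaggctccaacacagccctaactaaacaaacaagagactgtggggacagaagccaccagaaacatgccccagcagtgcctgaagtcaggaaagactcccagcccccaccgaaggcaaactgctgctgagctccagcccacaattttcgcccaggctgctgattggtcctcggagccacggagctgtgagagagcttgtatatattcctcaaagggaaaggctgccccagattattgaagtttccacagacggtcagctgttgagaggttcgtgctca

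Between genotypes, 7 of the 10 genes had a count in every library and were tested, and 0 of the 7 passed an adjusted p of 0.05 in edgeR. At an unadjusted p under 0.05 in edgeR, 2 of the 7, Tpm1 and Rgs5, were lower in cKO, against 2.08% of all genes. At the same threshold 0 of the 7 were higher. The median log2 fold change of the 7 was -0.16, beside -0.0013 over all genes tested, and 4 were below 0, as were 50.2% of all genes. Cnn1, Cspg4 and Myh11 had libraries at 0 and were left out of the test. In bulk RNA, fewer cells of a type and less RNA per cell cannot be told apart.

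Tpm1 had 697, 677, 762 and 774 CPM in CTL1 to CTL4 and 538, 605, 550 and 626 CPM in cKO1 to cKO4. Every cKO library lay below every CTL library, as for 1.29% of genes tested. The mean was 728 ± 47.7 CPM in CTL (SD, n = 4) and 580 ± 42.4 CPM in cKO (SD, n = 4), with a ratio of 0.797, and the exact permutation test gave a two-sided p of 0.0286, the smallest it can give with 4 against 4 libraries. The edgeR estimate was -0.33 on the log2 scale with a standard error of 0.09 (unadjusted p = 0.0055, adjusted p = 0.999). It lay between -0.37 and -0.30 when each library was left out in turn, with an unadjusted p under 0.05 in 8 of 8 fits. The difference was thus small, and larger than the spread between libraries for this gene taken alone, but not past the threshold over all genes.

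Rgs5 had 11.9, 22.6, 9.84 and 28.6 CPM in CTL1 to CTL4 and 3.15, 9.81, 4.12 and 14.6 CPM in cKO1 to cKO4. The groups overlapped, and libraries with title numbers 26 to 32 were the higher ones in both genotypes. Over all 8 libraries the mean was 18.2 ± 8.9 CPM in CTL (SD, n = 4) and 7.93 ± 5.35 CPM in cKO (SD, n = 4), with a log2 fold change of -1.20 (standard error 0.51, unadjusted p = 0.0412, adjusted p = 0.999, edgeR) and an exact permutation p of 0.114. Within each range both cKO libraries lay below both CTL libraries, with differences in mean log2 CPM of -1.05 in 26 to 32 and -1.46 in 67 to 86. With the title number range as a term in edgeR, the standard error was 0.23 instead of 0.51, and the estimate was -1.31 (unadjusted p = 0.000294, adjusted p = 0.666), where 0 genes were called (0%) and 790 had an unadjusted p under 0.05. DESeq2's likelihood ratio test with the same term called Rgs5 lower in cKO (log2 fold change -1.31, adjusted p = 8.26e-05), 1 of the 7 genes, against 0.335% of all genes with an adjusted p called in either direction and 0.192% called lower. With each library left out in turn, edgeR without the term gave log2 fold changes of -1.68 to -0.89, with an unadjusted p under 0.05 in 3 of 8 fits. The DESeq2 test with the term, whose repeats were added after the data were seen, called Rgs5 in 8 of 8 such fits, with adjusted p-values of 6.22e-07 to 0.00679. DESeq2's Wald test without the term gave an adjusted p of 0.68 (0.158% of genes called).

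Acta2 had 4.98, 2.76, 2.86 and 7.49 CPM in CTL1 to CTL4 and 2.91, 1.82, 1.08 and 3.22 CPM in cKO1 to cKO4, that is, 35 to 280 counts per library. The groups overlapped, also within each title number range, and CTL4 was the highest library. The edgeR estimate was -1.0 on the log2 scale with a standard error of 0.46 (unadjusted p = 0.0543, adjusted p = 0.999), and the exact permutation p 0.171. The estimate lay between -1.22 (without cKO4) and -0.65 (without CTL4) when each library was left out in turn. The unadjusted p was under 0.05 in 3 of these 8 edgeR fits. DESeq2's Wald test on all libraries gave an unadjusted p of 0.03 (adjusted p = 0.899). Its likelihood ratio test with the title number range gave an unadjusted p of 0.0339 (adjusted p = 0.73). The mean in CTL was 4.52 ± 2.23 CPM (SD, n = 4) and in cKO 2.26 ± 0.991 CPM (SD, n = 4), so that the difference in means was of about the size of the SD in CTL.

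Myh11 had 451 and 706 counts in CTL2 and CTL4 and 287 and 471 counts in cKO2 and cKO4, the libraries with title numbers 26 to 32. In the range 67 to 86 it had 117 and 85 counts in CTL1 and CTL3 and 0 counts in both cKO1 and cKO3. The 2 ranges did not overlap (13.3 and 1.61 CPM on average), as for 6.87% of genes tested, and within each range both cKO libraries lay below both CTL libraries. In the range 67 to 86 the mean of the 2 CTL libraries (3.21 CPM) was 34.9-fold above the level of 3 counts in each cKO library. That ratio allows for counting error in the libraries at 0 only, and not for the spread between mice. The edgeR fit without a filter on counts gave a log2 fold change of -0.93 (standard error 1.36, adjusted p = 0.996) without the range and -2.62 (standard error 1.03, unadjusted p = 0.0277, adjusted p = 0.952) with it, where the libraries at 0 make the estimate depend on the prior count. The difference between genotypes was itself compared between the ranges by an interaction term, which gave an unadjusted p of 1.07e-05 and an adjusted p of 0.069 over 25681 genes (edgeR), of which 0 passed and 3.15% had an unadjusted p under 0.05. Both cKO libraries lay below both CTL libraries in each range for Tpm1 and Rgs5 of the 7 tested genes, against 3.01% of all genes tested, and for Myh11 of the 3 others.

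**Figure D3:**
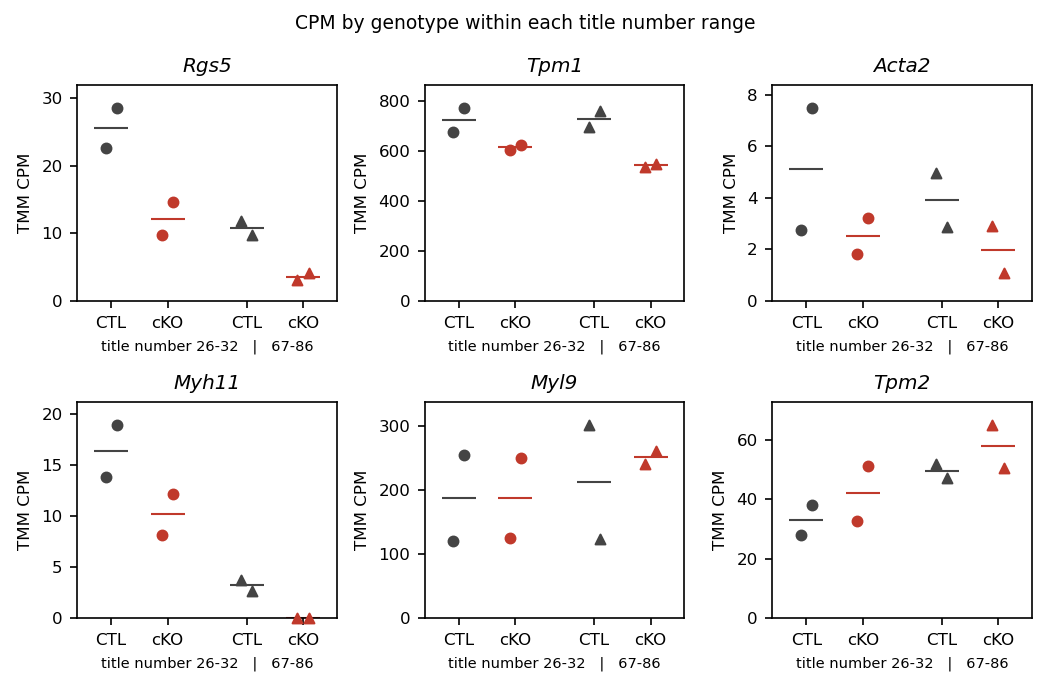
TMM CPM (linear axes from 0) of 6 genes by genotype within the title number ranges 26 to 32 (circles) and 67 to 86 (triangles), 1 symbol per library and a line at the mean of 2 libraries. For Rgs5, Tpm1 and Myh11 both cKO libraries lie below both CTL libraries in each range, whereas for Myl9 the libraries fall at 2 levels in both genotypes.

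For the remaining genes the genotypes overlapped. Myl9 had 301, 120, 124 and 255 CPM in CTL1 to CTL4 and 240, 125, 261 and 250 CPM in cKO1 to cKO4. CTL2, CTL3 and cKO2 were thus near 1 low level and the other 5 libraries at 240 to 301 CPM, across both genotypes and both title number ranges, with the highest library 2.52-fold above the lowest. Its log2 fold change of 0.13 (standard error 0.33, adjusted p = 0.999, edgeR) turned to -0.06 without CTL2 and to -0.05 without CTL3. Tpm2 had 28 to 51.7 CPM in CTL and 32.7 to 64.9 CPM in cKO (log2 fold change 0.27, standard error 0.23), so that the estimates of the 2 tropomyosins had opposite signs. Des varied less between libraries than Tpm2 or Tagln, with 27.5 to 47.3 CPM in CTL and 32.2 to 47 CPM in cKO (log2 fold change 0.09, standard error 0.18), and turned to -0.03 without CTL1. Tagln had 7.24 to 11.3 CPM in CTL and 5.99 to 11.9 CPM in cKO (log2 fold change -0.16, standard error 0.28). Its counts are uncertain, since the antisense gene Gm48529 shares 1241 bp and Pcsk7 108 bp of exon with it on the other strand, and whether reads were counted by strand is not given in the sources used here. Cspg4 had at most 39 counts, with 0 in CTL4 and cKO4, and Cnn1 at most 7, so that no difference was detectable at this depth. A count of 0 allows up to 3 counts in a library, which covers counting error only.

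The wider contractile program held 28 other genes of filaments, their kinases and phosphatases, and transcription factors, of which 22 were tested. In edgeR 0 of the 22 were called (0% of all genes), 1 was lower in cKO at an unadjusted p under 0.05 (2.08% of all genes), and the median log2 fold change was -0.07, with a range of -0.37 to 0.50. The gene at p under 0.05 was Cnn3, with 183 ± 40.7 CPM in CTL and 142 ± 9.8 CPM in cKO (SD over 4 libraries, log2 fold change -0.37, standard error 0.16, unadjusted p = 0.0384), and Myh10 had the next lowest value, -0.31 (standard error 0.43). The highest values were 0.50 (standard error 0.43) for Itga8, an integrin subunit of contractile mesenchymal cells, and 0.24 (standard error 0.27) for Ppp1r12a, the targeting subunit of myosin phosphatase. The 3 genes highest per length, Cnn2, Tpm4 and the actin crosslinker Flna, had log2 fold changes of -0.10, -0.16 and -0.15. Srf had a log2 fold change of 0.00 (standard error 0.24).

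Of 18 other pericyte genes 15 were tested, 0 were called in edgeR and 0 had an unadjusted p under 0.05 (4.43% of all genes), with a median log2 fold change of 0.07. The highest per length were Steap4, a metalloreductase, at 462 CPM per kb, Pdgfrb, the receptor through which PDGF-B recruits pericytes, at 425, and Angpt1, the ligand of the endothelial receptor Tek, at 77.3. Their log2 fold changes were 0.05 (standard error 0.10), 0.07 (standard error 0.11) and 0.14 (standard error 0.16). The lowest values were -0.82 (standard error 0.46) for Kcnj8, a subunit of ATP-sensitive potassium channels, and -0.55 (standard error 0.37) for Ndufa4l2, with mean levels of 2.43 and 4.18 CPM. The highest were 0.26 (standard error 0.24) for the aminopeptidase Anpep and 0.19 (standard error 0.09) for the connexin Gjc1, whose 4 cKO libraries all lay above the 4 CTL libraries, as for 1.34% of genes tested.

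**Figure D4:**
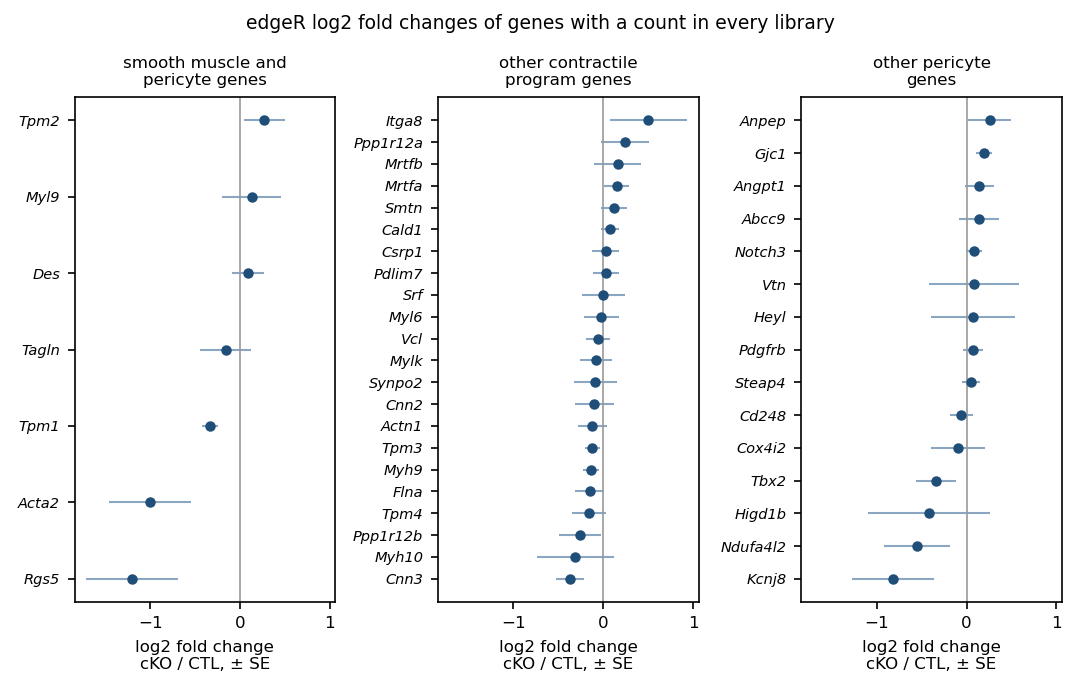
Log2 fold changes of cKO over CTL with their standard errors, from edgeR, for the 7 smooth muscle and pericyte genes tested (left), 22 other contractile program genes (middle) and 15 other pericyte genes (right). Rgs5, Acta2 and Tpm1 have the lowest values on the left (-1.20 for Rgs5 and -0.33 for Tpm1), and the medians are -0.16, -0.07 and 0.07.

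The genes whose log2 CPM followed that of Acta2 most closely over the 8 libraries, among 9401 genes with at least 10 CPM on average, were Pgap2 and Wdr11 (Pearson r of 0.97 each), Cisd3 (0.95), and Atg4a and Abhd14a (0.94 each). This is a description over libraries that share genotype and title number range, and none of the 5 is in the contractile or pericyte lists. The values are the highest of 9401 over only 8 libraries, and how high unrelated genes reach was not tested.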

How the data were processed

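RNA of MSPCs from 4 CTL and 4 cKO mice was sequenced after poly(A) selection, 1 library per mouse. The authors aligned the reads to mm10 with HISAT2, counted them per gene with HTSeq, and deposited the raw counts without normalization. Low counts favor odd numbers, so that it is unknown whether a count is a read or a pair. Ensembl identifiers without version were matched to GENCODE M21 symbols for 52489 of 52636 genes (147 unmatched). Acta2 and Myh11 carry another identifier version in the table than in this release.

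Genes with a count above 0 in all 8 libraries were tested with edgeR 4.0.16 (TMM scaling, glmQLFit and glmQLFTest) in R 4.3.3, with p adjusted by Benjamini-Hochberg and a threshold of 0.05. Since edgeR reports no standard error, those given for it are the absolute log2 fold change divided by the square root of the F statistic. They are approximate, above all for genes with libraries at 0. The methods correct for a batch that the labels do not name, so that the title number range was an alternative, as were other scalings and filters, DESeq2 1.42.0, a replicate block and leaving out each library. Exact two-sided permutation tests enumerated 70 assignments of log2 (CPM + 0.5). Scripts were tested on simulated data.

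The 10 genes, the lists and the tests were chosen with earlier results of these data known. Beside the 10, genes were named as the 3 highest per length and the 2 highest and 2 lowest log2 fold changes (mean of at least 1 CPM) of each list, the top marker of a cell type, and the 5 genes most like Acta2. Other family members, Srf, Myocd, Mrtfa and Mrtfb were named after their values were seen. Added after the data were seen were the fit without a filter and with the range term, the interaction, the differences within each range, and DESeq2 with the range and each library left out.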

Additional observations from a re-analysis of the deposited data

Results flagged for a closer look

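In Myl9, cKO2 (125 CPM) stood apart from the 3 other cKO libraries (240 to 261 CPM), with a gap to the nearest library of 0.842 of the group's range, above Dixon's 95% critical value for 4 samples. CTL2 and CTL3 had similarly low levels (120 and 124 CPM), so that cKO2 was not alone over the 8 libraries. In Cnn1, cKO2 was the only library with counts (7), so that the gap was the whole range of its group (1). Of 19 groups examined, chance flags about 1 in 20.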

How the results depend on the processing

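The number of genes called was 0 in edgeR, 1 with the filterByExpr filter, 1 with no filter, 23 with DESeq2's Wald test and 47 with the likelihood ratio test of DESeq2 when the title number range was a term, in which 1 smooth muscle or pericyte gene (Rgs5) was called. With each library left out in turn, edgeR called 0 to 0 genes over all genes, the 10 genes and both lists, and the number at an unadjusted p under 0.05 was 554 to 724 over all genes and 1 to 3 among the 7 tested. The log2 fold change of Myl9 ranged from -0.06 (without CTL2) to 0.40 and was -0.05 without CTL3, and that of Des ranged from -0.03 (without CTL1) to 0.21. Tpm1 passed 0.05 in the latter DESeq2 test in 1 of 8 fits that left out a library (adjusted p = 0.0498 without CTL2), and in the others its adjusted p reached 0.618.

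With the replicate number as a block, edgeR called 0 genes and 0 of the 7 tested, with 812 genes at an unadjusted p under 0.05. Of the 7, 4 lay under 0.05 unadjusted with the block and 2 without it. These were Tpm1 and Rgs5 in both fits, and with the block also Acta2 (edgeR, unadjusted p = 0.0181, adjusted p = 0.88), lower in cKO, and Tpm2 (unadjusted p = 0.0369, adjusted p = 0.88), higher in cKO. Deviations of same-numbered libraries correlated at 0.131, 0.176, 0.0844 and 0.0572. Of the 8 libraries, 7 correlated best with the library of their own number in the other genotype. Same-numbered libraries also fell in the same title number range. The labels do not say whether the numbers pair the libraries, so that edgeR was otherwise run without the block. Whether the libraries are paired was not settled.

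Counts of 39 or fewer in Cspg4 and Cnn1 and libraries at 0 in Myh11 limit what the depth can show for these genes.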
